A study of Mus musculus with 4 samples.

Results

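Triglyceride is built on a glycerol-3-phosphate backbone, to which acyl chains are added one after another before a phosphate is removed and the last chain is attached. Brown adipose tissue (BAT) stores triglyceride in many small droplets and burns the released fatty acids for heat, so its adipocytes carry the enzymes of this route at high levels. The enzymes described here are 10 genes listed by name. The rule uses no measured value, but the list was drawn up with earlier results of these data known. They are Gpd1 and Gk, which make glycerol-3-phosphate, Gpam, which adds the first acyl chain, Agpat2 and Agpat3, which add the next, Lpin1, Lpin2 and Lpin3, which remove the phosphate, and Dgat1 and Dgat2, which complete triglyceride. All 10 were found by symbol among the 22298 genes of the count table, and all 10 passed the filter on low counts that left 12888 genes for testing.

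RNA-seq was performed on BAT of C57BL/6 fetuses (C57BL/6J in the study's methods) at E18.5, in 2 libraries from dams that drank sterilized tap water (control) and 2 libraries from dams that drank 20% (w/v) fructose water from mating onwards (fructose). The sources used here do not give the number of fetuses or litters behind a library, so p-values measure only the spread between these libraries, which may be technical. Total counts on genes were between 18542897 and 23645147 per library, and levels are given as CPM, a gene's counts scaled to a common library size after TMM normalization (a correction for differences in RNA composition between libraries). The tissue label was checked against brown adipocyte markers, of which Ucp1, the uncoupling protein of BAT, was between 9610 and 12430.0 CPM. All libraries are labelled male, but the summed counts of 4 Y-linked genes were 422 and 390 in control and 0 in each fructose library, and a count of 0 allows up to 0.133 and 0.123 CPM for a gene. Sex and maternal drink therefore cannot be told apart in any value below, and no comparison is left without these 2 fructose libraries. In bulk tissue, a lower share of adipocytes and less RNA per adipocyte cannot be told apart either.

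Among the 10 enzymes, Lpin1 was higher and Dgat1 was lower in fructose BAT, and the other 8 were not called (edgeR's quasi-likelihood test, calls at a Benjamini-Hochberg adjusted p below 0.05). Calls were made for 26.2% of all tested genes, 15.5% higher and 10.7% lower, so 2 calls among 10 genes are close to the share among all genes. The fitted log2 fold changes of fructose against control ran from -0.37 for Dgat1 to 0.40 for Lpin3, with a median of 0.18 over the 10 genes and 0.0025 over all tested genes. The fructose libraries were both above both control libraries for 6 genes and both below for 2 genes. The groups did not overlap for 65.1% of all tested genes, made up of 33.4% of all tested genes higher and 31.6% lower. The plot of levels by library shows how small these differences were beside the levels themselves.

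**Figure D1:**
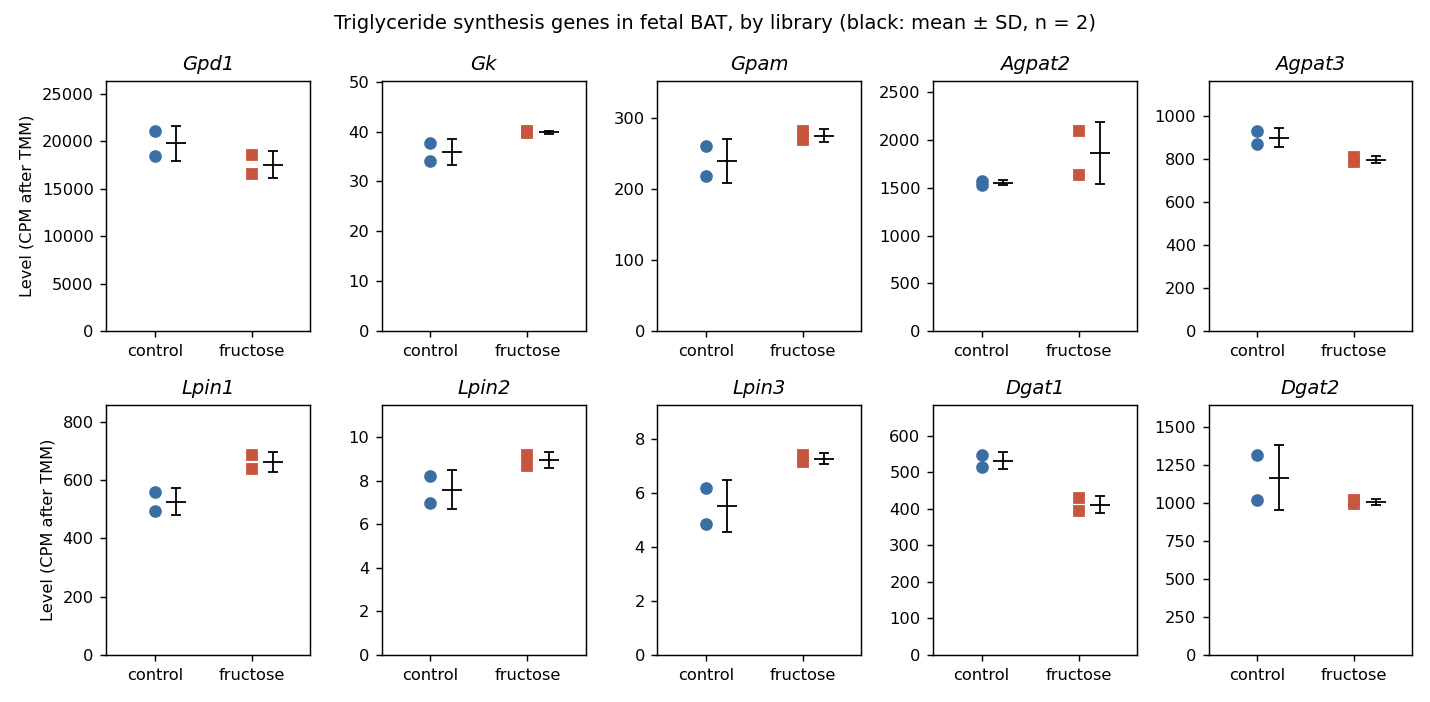
Level of each gene (y axis, CPM after TMM scaling, starting at 0) in the 2 control libraries (blue circles) and the 2 fructose libraries (red squares), with the mean ± SD of each group in black. Lpin1 is higher and Dgat1 lower in both fructose libraries, while the libraries of Gpd1 and Dgat2 overlap between the groups.

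Glycerol-3-phosphate comes from glycolysis through Gpd1, the cytosolic glycerol-3-phosphate dehydrogenase, or from free glycerol through Gk, glycerol kinase. Gpd1 (ENSMUSG00000023019, GRCm38 chromosome 15, 99717515 to 99725005, plus strand) was at 18486 and 21058 CPM in the control libraries and 18507 and 16496 CPM in the fructose libraries. It ranked 2 among all genes by mean CPM and took between 1.71% and 2.05% of each library's counts. Fructose library 1 lay between the control libraries, and the fitted difference of -11.5% had a 95% interval from -25.3% to 4.93% (log2 fold change -0.18, standard error 0.11, edgeR adjusted p = 0.27). Gk (ENSMUSG00000025059, chromosome X, 85701937 to 85776819, minus strand) was far lower, at 34.1 and 37.8 CPM in control and 39.7 and 40.1 CPM in fructose. Both fructose libraries were above both control libraries, but the difference of 11.1% (95% interval -3.68% to 28.2%) was not called (log2 fold change 0.15, standard error 0.09, edgeR adjusted p = 0.26). Gk lies on the X chromosome, and sex was not balanced between the groups by the Y-linked counts given above.

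Gpam encodes the mitochondrial glycerol-3-phosphate acyltransferase, which forms lysophosphatidate. Gpam (ENSMUSG00000024978, chromosome 19, 55067268 to 55127238, minus strand) was at 218 and 262 CPM in control and 282 and 269 CPM in fructose. The fructose libraries were both the higher ones, with the lower of them close to control library 2. The difference of 14.9% (95% interval -0.628% to 33.0%) was not called (log2 fold change 0.20, standard error 0.10, edgeR adjusted p = 0.14). Without control library 2 it was called, at a log2 fold change of 0.34 (edgeR adjusted p = 0.0036), and without control library 1 it was 0.08.

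Agpat2 and Agpat3 encode acyltransferases that turn lysophosphatidate into phosphatidate, and loss of Agpat2 causes lipodystrophy in mice and humans. Agpat2 (ENSMUSG00000026922, chromosome 2, 26593057 to 26604417, minus strand) was at 1533 and 1571 CPM in control and 2094 and 1631 CPM in fructose. The control libraries lay close together and fructose library 1 stood well above the rest. The difference of 20.0% (95% interval 1.11% to 42.5%) was not called after adjustment (log2 fold change 0.26, standard error 0.11, edgeR adjusted p = 0.11). It was 0.08 without fructose library 1 (edgeR adjusted p = 0.75) and 0.43 without fructose library 2 (edgeR adjusted p = 0.023). Agpat2 was called higher under 9 of 15 alternative settings of the fit, with adjusted p-values from 0.0041 to 0.75.

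Agpat3 (ENSMUSG00000001211, chromosome 10, 78269178 to 78352489, minus strand) was at 869 and 929 CPM in control and 786 and 809 CPM in fructose. Both fructose libraries were below both control libraries. The fitted difference of -11.4% (95% interval -22.1% to 0.836%) was not called (log2 fold change -0.17, standard error 0.09, edgeR adjusted p = 0.15). Per kilobase of exons, Agpat2 made up 86.6% and 86.1% of the summed Agpat2 and Agpat3 level in control and 90.7% and 88.1% in fructose. The share was higher in both fructose libraries, and an exact permutation test of 2 against 2 libraries cannot give a p-value below 0.333. The 250 bases before the start sites of both genes are given because the pair lay on opposite sides of control. They come from RefSeq's GRCm38.p6 annotation, on the minus strand, written 5′ to 3′, at chr2:26604418-26604667 for Agpat2 and chr10:78351701-78351950 for Agpat3, with any GC box, CCAAT box or E-box on either strand in capitals.
Agpat2: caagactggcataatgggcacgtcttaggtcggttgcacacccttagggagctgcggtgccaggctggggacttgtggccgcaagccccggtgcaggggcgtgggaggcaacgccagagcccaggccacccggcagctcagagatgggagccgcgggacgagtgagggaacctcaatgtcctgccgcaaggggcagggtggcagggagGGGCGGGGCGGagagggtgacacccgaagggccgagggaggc
Agpat3: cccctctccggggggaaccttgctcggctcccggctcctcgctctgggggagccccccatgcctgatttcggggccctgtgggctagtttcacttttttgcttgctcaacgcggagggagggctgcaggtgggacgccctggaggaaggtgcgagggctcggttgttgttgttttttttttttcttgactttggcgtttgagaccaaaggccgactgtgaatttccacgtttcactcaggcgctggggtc
The Agpat2 stretch held 2 overlapping GGGCGG matches, at positions -42 and -37 (the first base of the match, with the start site as 0), and the Agpat3 stretch held none of these motifs. The Agpat3 stretch lies inside the gene span given above, so other start sites of that gene were not covered. GGGCGG, the letters of the GC box, was found in 35.7% of 32851 promoter windows of 300 bases. It was also present at position 24 of Agpat2, past the start site. At least 1 window each of Gk, Gpam, Lpin2 and Lpin3 held it too, so it did not set Agpat2 apart.

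The lipins dephosphorylate phosphatidate to diacylglycerol, and Lpin1, whose loss causes the fatty liver dystrophy of the fld mouse, is the main lipin of adipose tissue. Lpin1 (ENSMUSG00000020593, chromosome 12, 16535669 to 16610966, minus strand) was at 494 and 559 CPM in control and 687 and 637 CPM in fructose. Both fructose libraries were clearly above both control libraries. Lpin1 was higher by 25.7% (95% interval 9.42% to 44.4%), or 0.33 ± 0.09 (standard error) on the log2 scale, at an edgeR adjusted p of 0.021, and DESeq2 also called it (adjusted p = 0.010). Without fructose library 1 the log2 fold change was 0.28 and the call was lost (edgeR adjusted p = 0.13). It was also lost once each library's trend with transcript length was removed, at 0.09 (edgeR adjusted p = 0.57), or the trends with length and GC content together, at 0.16 (edgeR adjusted p = 0.33). As the member called higher, its 250 bases before the start site are given from the same RefSeq annotation (GRCm38.p6, minus strand, chr12:16610967-16611216).
Lpin1: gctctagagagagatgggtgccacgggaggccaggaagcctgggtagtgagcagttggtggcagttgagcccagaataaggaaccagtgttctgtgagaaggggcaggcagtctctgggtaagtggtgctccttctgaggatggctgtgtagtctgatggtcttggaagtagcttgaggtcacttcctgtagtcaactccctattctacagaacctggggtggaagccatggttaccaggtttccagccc
None of the 4 motifs searched on both strands was found in the 300-base window of Lpin1. These were the GC box, the E-box CACGTG (in 7.15% of all windows), the CCAAT box (in 37.4%) and the TATA box TATAAA (in 13.6%). CACGTG was present at position -58 of Gk, in 1 of the windows of Lpin2 at position -9 and in 1 of the windows of Lpin3 at position 22, and CCAAT in 1 of the windows of Gpam at position -74 and in 1 of those of Lpin2 at positions -233, -165 and -57. Promoter windows were matched for 7 of the 10 genes, all but Gpd1, Dgat1 and Dgat2.

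Lpin2 and Lpin3 were barely expressed beside Lpin1. Lpin2 (ENSMUSG00000024052, chromosome 17, 71182560 to 71249817, plus strand) had 132 and 148 counts in control and 196 and 225 counts in fructose, equal to 6.97, 8.21, 8.67 and 9.19 CPM. Lpin3 (ENSMUSG00000027412, chromosome 2, 160880670 to 160906002, plus strand) had 92 and 112 counts in control and 168 and 175 counts in fructose, equal to 4.86, 6.21, 7.43 and 7.15 CPM. For both genes the fructose libraries were the higher ones, and neither was called. The difference was 17.8% for Lpin2 (95% interval -8.35% to 51.3%, edgeR adjusted p = 0.32) and 31.8% for Lpin3 (95% interval -1.31% to 76.0%, edgeR adjusted p = 0.14). Lpin3 had the largest fitted log2 fold change of the 10 genes, 0.40, with the largest standard error, 0.19. Per kilobase of exons, Lpin1 held between 96.1% and 96.4% of the summed lipin level in every library, and its share overlapped between the groups.

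Dgat1 and Dgat2 catalyse the same last step, the acylation of diacylglycerol to triglyceride, but belong to unrelated protein families. Dgat1 (ENSMUSG00000022555, chromosome 15, 76502015 to 76511953, minus strand) was at 515 and 548 CPM in control and 429 and 394 CPM in fructose. The groups were well apart, with every fructose value under every control value. Dgat1 changed by -22.5% (95% interval -32.0% to -11.8%), or -0.37 ± 0.09 (standard error) on the log2 scale, at an edgeR adjusted p of 0.0096, and DESeq2 also called it (adjusted p = 0.00090). Without fructose library 2 the log2 fold change was -0.31 and the call was lost (edgeR adjusted p = 0.11). It was also lost with the trend with transcript length removed (-0.21, edgeR adjusted p = 0.12), with that of GC content removed (-0.22, edgeR adjusted p = 0.10) and with both removed (-0.11, edgeR adjusted p = 0.49).

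Dgat2 (ENSMUSG00000030747, chromosome 7, 99153658 to 99182719, minus strand) was at 1015 and 1315 CPM in control and 1017 and 992 CPM in fructose. Only control library 2 stood apart, and control library 1 lay between the fructose libraries. The difference of -13.8% (95% interval -27.4% to 2.30%) was not called (log2 fold change -0.21, standard error 0.11, edgeR adjusted p = 0.18). Its size rested on control library 2, since it was -0.02 without that library and -0.39 without control library 1 (edgeR adjusted p = 0.00029). Per kilobase of exons, Dgat1 made up 33.8% and 29.6% of the summed Dgat1 and Dgat2 level in control and 29.9% and 28.6% in fructose, shares that overlapped between the groups.

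The ratio of Lpin1 to Dgat1, both as CPM per kilobase of exons, was 0.303 and 0.323 in control, against 0.506 and 0.510 in fructose. The same ratio of Lpin1 to Dgat2 was 0.155 and 0.136 in control, against 0.215 and 0.205 in fructose. The groups did not overlap in either ratio. Both ratios were formed after the levels were seen, the first from the 2 genes called in opposite directions, so they are given as values with no test. Neither gene was called with both trends removed.

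The order of the 10 genes by level per length was the same in both groups. In control BAT the mean level was 6677 ± 614 CPM per kilobase for Gpd1, 728 ± 12.6 for Agpat2, 378 ± 68.7 for Dgat2, 174 ± 7.63 for Dgat1, 115 ± 5.45 for Agpat3, 54.5 ± 4.78 for Lpin1, 36.0 ± 4.62 for Gpam, 4.64 ± 0.34 for Gk, 1.5 ± 0.26 for Lpin3 and 0.62 ± 0.072 for Lpin2 (SD, n = 2 libraries). No neighbours in this order overlapped between their libraries, in control or in fructose, and the smallest step was that from Dgat1 to Agpat3, 1.51-fold in control and 1.32-fold in fructose. Per kilobase of the longest transcript the order was kept, but levels were higher by 1.03-fold for Gpd1 to 2.17-fold for Lpin2. The smallest step was then from Lpin3 to Lpin2 in control (1.19-fold, with overlapping libraries) and from Agpat3 to Lpin1 in fructose (1.12-fold), and Dgat1 was 1.87-fold above Agpat3 in control. Gpd1 was 9.17-fold above the next gene, Agpat2, in control and 6.76-fold above it in fructose. The genes that make the backbone thus held both the top of the order and, with Gk, a place near its end.

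**Figure D2:**
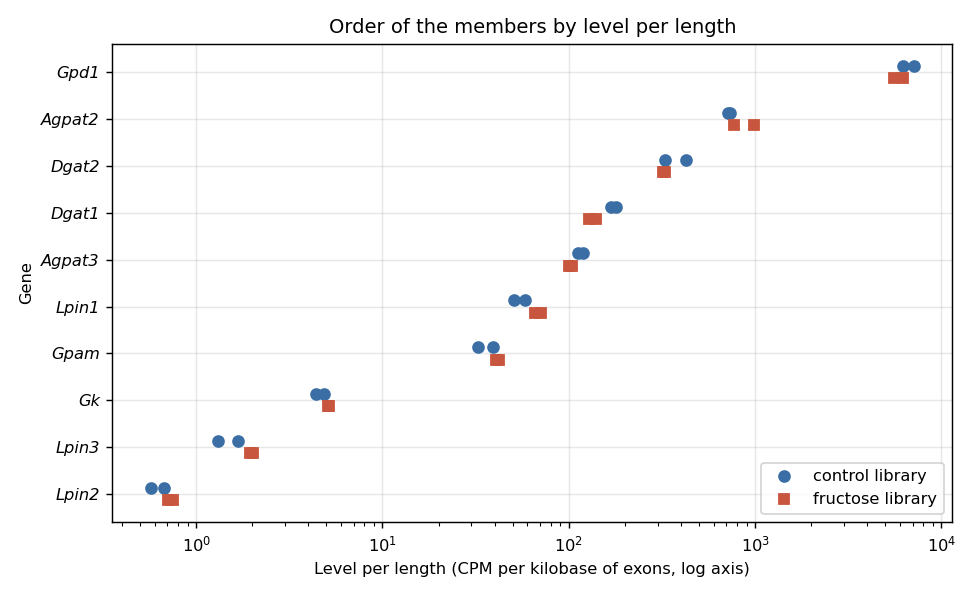
Level per length of each gene (x axis, CPM per kilobase of exons, log axis) in each control library (blue circles) and fructose library (red squares), with genes sorted by their control mean. Gpd1 lies 9.17-fold above Agpat2 in control, and Gk, Lpin3 and Lpin2 lie at the low end.

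The libraries of a group also differed from each other across the enzymes. All 10 genes were higher in control library 2 than in control library 1, by factors from 1.02 for Agpat2 to 1.29 for Dgat2, where 48.4% of all tested genes were higher in that library. The summed level of 8 brown adipocyte markers was also higher there, at 16483 against 13773 CPM, while that of 10 general adipocyte markers was lower, at 17971 against 18879 CPM. In fructose, 7 of the 10 genes were higher in library 1 than in library 2, and Agpat2 differed most, by 1.28-fold. The part of these differences in the comparison between groups was not tested beyond the values without each library.

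The difference between groups was related to the length and base composition of the transcript across all genes. Over 12884 tested genes, fold changes were greater for longer transcripts (Spearman's rho 0.50 with the length of the longest transcript) and smaller for GC-rich ones (rho -0.50), a description across genes of the same 4 libraries. Dgat1 and Dgat2, which had negative fold changes, have short and GC-rich longest transcripts, 1888 bases with 56.5% GC and 2262 bases with 56.3% GC, where the median length over tested genes was 3433 bases and the GC contents lie at the 84.1 and 83.1 percentiles. Lpin1, Lpin2 and Gpam, which had positive fold changes, have long ones, of 5581, 5640 and 6172 bases. Agpat2 departed from the pattern, with the shortest and most GC-rich transcript of the 10, 1489 bases and 58.0% GC, and a positive fold change. Lpin3 departed from the GC content part, with 55.7% GC and the largest positive fold change of the 10. Its length of 3470 bases was close to the median. Agpat3 departed from the length part of the pattern only, with 5980 bases and a negative fold change. Its GC content of 54.2% lay at the 72.4 percentile. None of Agpat2, Lpin3 and Agpat3 was called in the main fit.

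**Figure D3:**
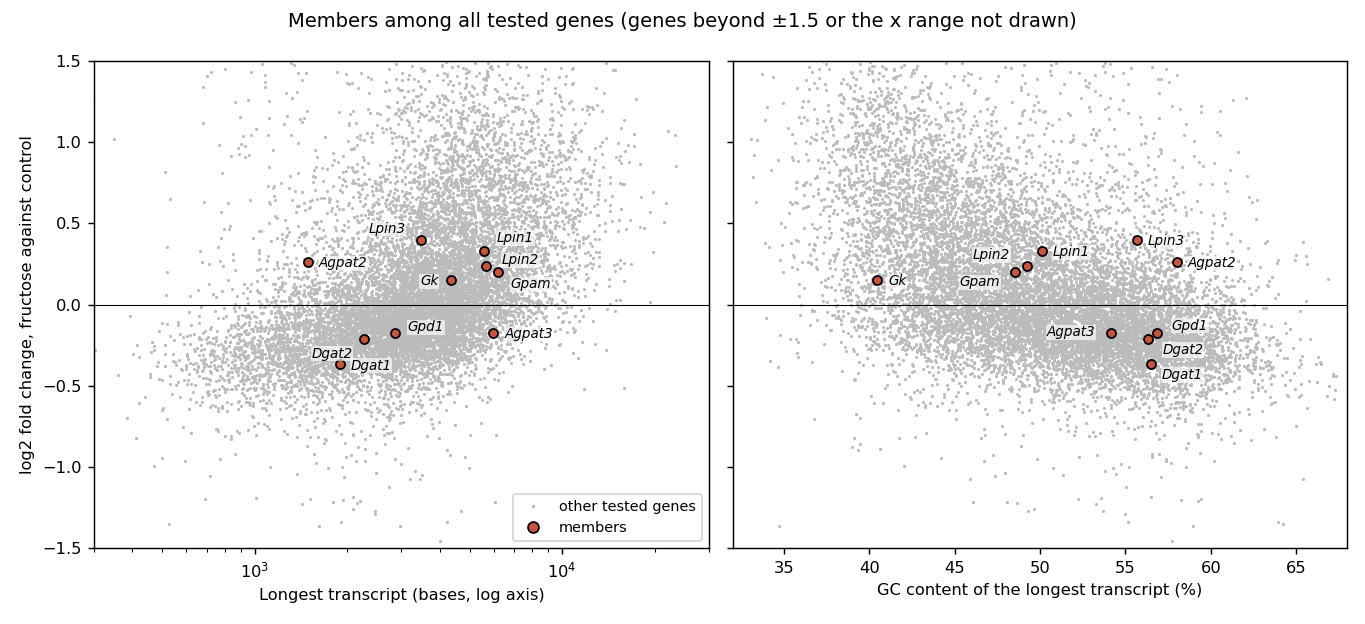
log2 fold change of fructose against control (y axis) for the 10 members (red, named) and all other tested genes (grey) against the longest transcript's length in bases (left, log axis) and its GC content in percent (right). The grey cloud rises with length and falls with GC content. Agpat2, at 1489 bases and 58.0% GC, lies within the cloud at a positive fold change.

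After both trends had been removed from each library, neither Lpin1 nor Dgat1 was called. With the GC content trend alone removed, Lpin1 kept its call at 0.33 (edgeR adjusted p = 0.030). With both trends removed, Agpat2 was the only member called. It was higher by 0.57 on the log2 scale (95% interval 0.33 to 0.81, edgeR adjusted p = 0.011). Before trend removal it was 0.26, and 0.08 without fructose library 1. No fit left out a library with the trends removed. Agpat2 lies near the edge of both trends, at the 10.8 percentile of length and the 90.3 percentile of GC content. Of all tested genes, 8.01% were called with both trends removed, 3.9% higher and 4.1% lower. Agpat3 was at -0.29 (edgeR adjusted p = 0.061), and Lpin3 at 0.51 (edgeR adjusted p = 0.11). Gk turned from 0.15 to -0.32 (edgeR adjusted p = 0.099), and with the GC content trend alone removed it was called lower, at -0.36 (edgeR adjusted p = 0.043). Gpd1, Gpam, Lpin2 and Dgat2 lay between -0.053 and 0.030 with both trends removed. The median over the 10 genes was then 0.015. The source of the trends was not tested.

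**Figure D4:**
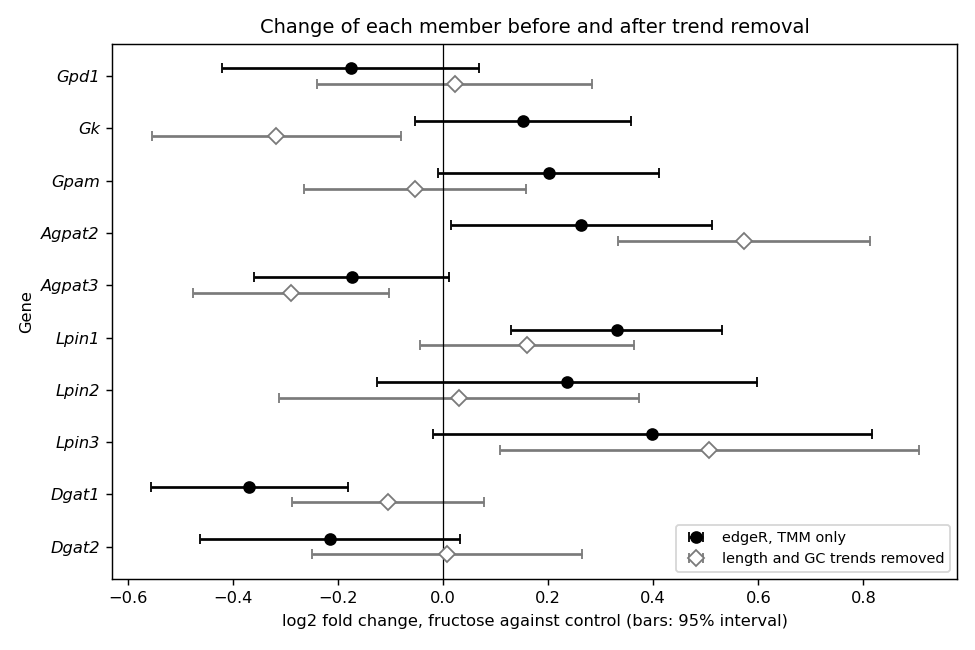
log2 fold change of fructose against control (x axis) with its 95% interval for each gene, from edgeR with TMM scaling (black circles) and from the same fit after removal of both trends (open diamonds). Lpin1 and Dgat1 move towards 0 on trend removal, from 0.33 to 0.16 and from -0.37 to -0.11, Agpat2 moves from 0.26 to 0.57, and Gk changes sign.

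**Figure D5:**
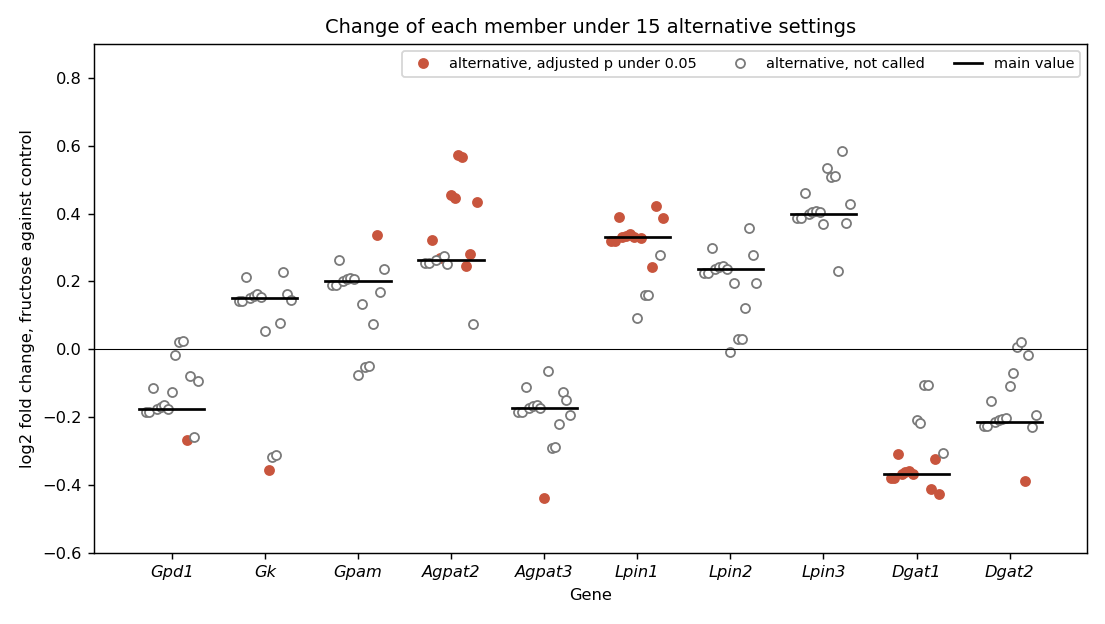
log2 fold change of each gene (y axis) under 15 alternative settings, among them other scalings, filters, trend removals and the omission of each library (red, called at an adjusted p below 0.05, and open, not called), with the main value as a black line. Lpin1 is called under 11 and Dgat1 under 10 of the 15 settings, Agpat2 under 9, and Lpin2 and Lpin3 under 0.

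Another 33 genes of the same route and its branches were examined beside the 10 enzymes, and 30 of them passed the filter. Of these, edgeR called 5 higher and 4 lower in fructose, a share close to the 26.2% of all tested genes. The fitted median log2 fold change was 0.11, against 0.0025 over all tested genes. Long-chain acyl-CoA synthetases, which activate the fatty acids that the acyltransferases use, were called higher in 3 of 4 tested genes. These were Acsl5 (log2 fold change 0.44, edgeR adjusted p = 0.011), Acsl4 (0.98, edgeR adjusted p = 0.011) and Acsl3 (0.64, edgeR adjusted p = 0.034), of which Acsl4 and Acsl3 were low in control, at 2.57 and 10.7 CPM on average, and Acsl4 lies on the X chromosome. Acsl1, the main synthetase of this tissue by level, was at 1681 and 1740 CPM in control and 2007 and 1917 CPM in fructose and was not called (0.20, edgeR adjusted p = 0.12). In the branch from phosphatidate and diacylglycerol to phospholipids, Cds1, a CDP-diacylglycerol synthase, was called higher (0.30, edgeR adjusted p = 0.044), as was Chpt1, a cholinephosphotransferase that competes with Dgat1 and Dgat2 for diacylglycerol (0.31, edgeR adjusted p = 0.019).

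The 4 genes called lower were spread over the route. Ctdnep1, the phosphatase that activates lipins, had a log2 fold change of -0.32 (edgeR adjusted p = 0.013). Bscl2, which encodes seipin, a protein of lipid droplet assembly, was at 417 and 401 CPM in control and 335 and 326 CPM in fructose (-0.31, edgeR adjusted p = 0.017). Aqp7, the glycerol channel of adipocytes, was at -0.30 (edgeR adjusted p = 0.032), and Agpat1, a further lysophosphatidate acyltransferase, at -0.25 (edgeR adjusted p = 0.039). Pck1, which supplies glycerol-3-phosphate from pyruvate, was at 1329 and 1245 CPM in control and 1120 and 1270 CPM in fructose, levels that overlapped. With both trends removed, none of the 9 genes was called in the same direction, but some fold changes were of like size, at 0.34 for Cds1 (edgeR adjusted p = 0.051), -0.26 for Bscl2 (0.069), 0.34 for Acsl5 (0.083) and -0.22 for Aqp7 (0.17). Acsl3 was at 0.39, Acsl4 at 0.34, Agpat1 at 0.03 and Ctdnep1 at -0.03. Chpt1 was called in the other direction (-0.34, edgeR adjusted p = 0.033). The 4 other genes called in that fit were Fitm1 and Pcyt2 higher and Gpat4 and Agpat5 lower. Fitm1 was low, at 16 and 18 counts in control and 36 and 54 counts in fructose.

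Markers of some other cell types that the dissected tissue could hold moved with the groups. The summed level of 10 skeletal muscle markers was 240 and 327 CPM in control and 769 and 568 CPM in fructose, and all 10 were called higher by edgeR. General adipocyte markers summed to 18879 and 17971 CPM in control and 15878 and 15496 CPM in fructose, with 5 of 10 called lower and 0 higher (Adipoq, adiponectin, was between 1201 and 1553 CPM). Brown adipocyte markers summed to between 13537 and 16483 CPM and overlapped between the groups, with 3 of 8 called higher and 1 lower. Erythroid markers fell from 19193 and 15270 CPM to 11751 and 12132 CPM, with 5 of 6 called lower. Markers of macrophages, Schwann cells and fibroblasts overlapped between the groups in their sums, with 1 of 5 macrophage markers called higher and 1 lower. Endothelial markers did not overlap, at 1374 and 1322 CPM in control and 1193 and 1278 CPM in fructose, with 1 of 5 called lower. Of 10 liver markers, 2 passed the filter and 4 were at 0 in every library, their sum overlapped between the groups (295 to 667 CPM), and the hepatocyte marker Alb was at or under 0.0885 CPM in every library. Cartilage markers summed to between 1.95 and 2.57 CPM. Mitochondrially encoded genes held 5.89% and 6.49% of counts in control and 10.8% and 11.2% in fructose. The part of muscle, adipocyte and erythroid RNA in the differences of Lpin1 and Dgat1 was not tested.

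Exons of some members overlap exons of genes on the opposite strand, and the sources used here do not state whether counting used strand. For Gpd1 the overlap with the antisense gene Gm16537 covers 384 bases, 13% of its exons. For Agpat2 it is 64 bases, 3% of its exons, with Egfl7, which is counted in the same table. Overlaps of Gk and Agpat3 with other transcripts, not analysed here, cover 1.08% and 0.21% of their exons, and no exon of the other 6 genes overlaps another gene's exon.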

How the data were processed

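Per the paper's methods, the authors filtered reads with Fastp, aligned them with Bowtie2 and Tophat on the mouse genome mm10, built transcripts with StringTie and Cuffmerge and extracted counts per gene. The deposited values are whole numbers with different totals per library and were taken as raw counts without normalization. The counting tool, its strand setting and the annotation release are not given in the sources used here. The 4 tables of single libraries held the same counts as the joint table. Ensembl IDs were matched to GENCODE M21 (GRCm38), and 43 of 22298 had no entry.

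Genes kept by filterByExpr were tested with edgeR 4.0.16 (R 4.3.3), with TMM, glmQLFit and glmQLFTest, two-sided and with no covariate, with Benjamini-Hochberg adjustment over 12888 genes. The study's own test, DESeq2 (1.42.0 here), was an alternative. Trends were removed as offsets from lowess curves (span 0.3), fitted in each library on log2 length and GC content of the longest transcript. The fitted values were deviations of a gene's log2 CPM (prior count 2) from its mean over all libraries. These deviations also hold the difference between the groups. Level per length used the union of exons. Intervals and floors (3 counts for a gene at 0) cover the fit and counting error only. Alternatives were other scalings and filters, the replicate block, trend removal and leaving out each library. Some of the fits were also run on simulated counts, without a trend or with a length trend. Removal of a GC content trend or of both trends was not tested there. The named genes are the 10 members, the pathway genes called or among the 3 highest by mean CPM, and the first marker of each list. Members and lists were chosen with earlier results of these data known.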

Additional observations from a re-analysis of the deposited data

How the results depend on the processing

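No scaling alternative changed the direction of any of the 10 genes, and of 150 values (10 genes under 15 settings) 117 kept their direction and call, 9 lost the call, 13 gained one and 11 changed sign. Of the 10 genes, 2 in place of 1 were called higher when scaled by library size only or with no filter on low counts. The same number was called higher with the GC content trend removed. With both trends removed, with or without the replicate block, 0 in place of 1 was called lower. Unchanged totals could hold other genes. With the gene length trend removed, the calls were Agpat2 (0.45) and Agpat3 (-0.44). With the GC content trend removed, the gene called lower was Gk, and with both removed, the gene called higher was Agpat2. The median over the 10 genes was -0.042 with the gene length trend removed, 0.015 with both trends removed and 0.022 with both removed and the replicate block. With a library left out (the lone library of its group is then assumed to vary like the other group), 0 to 3 genes were called higher and 0 to 3 lower, with a median from 0.077 to 0.25. Of the other pathway genes, 2 were called lower when scaled by library size only and 2 higher with the GC content trend or both trends removed, and 1 to 5 were higher and 0 to 6 lower with a library left out.

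The sign of Gpam turned with the gene length trend removed (-0.076), both trends removed (-0.053) and both with the block (-0.049). Lpin2 turned with the gene length trend removed (-0.0077). Gk turned with the GC content trend removed (-0.36), both removed (-0.32) and both with the block (-0.31). With both removed, and both with the block, Gpd1 turned to 0.022 and 0.024 and Dgat2 to 0.0076 and 0.020. Agpat3 was called with the gene length trend removed (-0.44), and Gpd1 without control library 1 (-0.27).

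The labels number the libraries 1 and 2 in both groups, with no statement that a number marks a shared litter or day, and deviations of same-numbered libraries from their group means correlated at -0.069. With the replicate number as a block, 1 gene was called higher and 1 lower (Lpin1 0.33, Dgat1 -0.37), and over all genes 2117 and 1441 in place of 2001 and 1379. Over all genes, both trends removed gave 503 higher and 529 lower, and scaling by library size only gave 2242 and 857, so that 72.3% of calls were higher in place of 59.2%. Leaving out a library gave 1266 to 2254 higher and 527 to 1685 lower. Taking the longest transcript in place of the union of exons kept the order of the 10 genes by level per length, but Lpin3 and Lpin2 then overlapped in control. With 2 libraries per group, Lpin2 and Lpin3, at 92 to 225 counts, had the widest intervals.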
